A study of Mus musculus with 18 samples.

Results

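The genes described here encode the DNA cytosine methyltransferases Dnmt1, Dnmt3a and Dnmt3b, their catalytically inactive relative Dnmt3l, and Uhrf1, the protein that brings Dnmt1 to newly replicated DNA. They were chosen by name, 5 genes in all. Dnmt1, Dnmt3a and Uhrf1 each had 1 locus among the 14864 of the RNA table. Dnmt3b and Dnmt3l had none under their symbols or RefSeq synonyms, so their RNA levels were not analysed here. The 5 genes held 11 of the 7870 positions at which RNA 5-methylcytosine (m5C) was listed in either genotype. The cells were mouse embryonic stem cells, Tet2 KO or wild type, grown with serum and LIF on a layer of mouse embryonic fibroblasts, and neither the removed stretch of Tet2 nor the number of clones per genotype is stated in the labels. For RNA sequencing, transcription was blocked with 5 µg/ml actinomycin D and each genotype contributed 1 library before the drug (0 h) and 1 each after 3 and 6 h, from poly(A)-selected RNA depleted of rRNA. RNA bisulfite sequencing, which counts cytosines that resist conversion as m5C, was made on 2 replicates of each genotype.

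DNA methylation in mammals sits mostly on cytosines that precede a guanine (CpG). Dnmt3a and Dnmt3b place it on unmethylated DNA, Dnmt3l binds and stimulates them, and Dnmt1 copies it to the daughter strand after Uhrf1 has recognised the half-methylated site. Tet2 works in the other direction as a dioxygenase that oxidises 5-methylcytosine, and it can act on RNA as well as on DNA. In mouse embryonic stem cells all of these enzymes are normally made, and a short form of Dnmt3a that starts at an internal promoter predominates.

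The gene-level value of Dnmt3a sums RNA from all of its starts. The promoter table from RefSeq (GRCm38.p6) gives 3 starts for this gene, and the 250 bases before the first and the last of these are shown, although the RefSeq bounds of the gene begin earlier, at position 3801559. They were chosen because Dnmt3a is the one of the 3 measured genes whose genotypes did not overlap in RNA level. Capitals mark CpG, the dinucleotide that the encoded enzyme methylates.
Dnmt3a first start of the promoter table, chr12:3806730-3806979, plus strand: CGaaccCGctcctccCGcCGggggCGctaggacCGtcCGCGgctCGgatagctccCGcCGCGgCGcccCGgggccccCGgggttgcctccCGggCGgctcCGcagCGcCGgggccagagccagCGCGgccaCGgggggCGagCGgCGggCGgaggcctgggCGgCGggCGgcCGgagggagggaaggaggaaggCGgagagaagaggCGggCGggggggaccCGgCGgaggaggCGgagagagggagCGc
Dnmt3a last start of the promoter table, chr12:3891494-3891743, plus strand: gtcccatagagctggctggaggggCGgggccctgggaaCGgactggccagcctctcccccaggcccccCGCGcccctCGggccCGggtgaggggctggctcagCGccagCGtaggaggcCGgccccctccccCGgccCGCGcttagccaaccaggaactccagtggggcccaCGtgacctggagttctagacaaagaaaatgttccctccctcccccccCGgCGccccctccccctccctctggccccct
The first sequence holds 38 CpG and the last one 15, against a median of 6 over all 32851 promoter windows of the same length. The GC box GGGCGG was found 5 times in the first window and 1 time in the last one, counting both strands, and 32.7% of all windows hold it. Neither window holds CCAAT, which 33.8% of windows do, or the E2F motif forms TTTCCCGC, TTTCGCGC and TTTGGCGC, which 0.895%, 0.256% and 0.417% of windows hold. Of the 2 Uhrf1 windows, the more CpG-rich has 30 CpG and 1 match to TTTCGCGC, as has the most CpG-rich of the 3 Dnmt1 windows, with 26 CpG. The single Dnmt3b window has 21 CpG, and the 3 Dnmt3l windows have between 3 and 5.

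RNA levels were compared as RPKM (reads scaled by RNA length and library total), and 11855 loci with a mean of at least 1 RPKM were tested. The median RPKM of a library was between 3.57 and 5.31 in Tet2 KO and between 3.43 and 5.48 in wild type, and numbers of reads are not given in the files. The summed RPKM of a library was between 1417510 and 1863307 in Tet2 KO and between 1743121 and 2104458 in wild type. The 10 highest loci held 37.2% to 39.4% of that sum in Tet2 KO and 37.4% to 43.0% in wild type, so the libraries differed in make-up. Of 10 stem cell markers listed for the check of the cell type, 7 were in the table, Pou5f1 and Nanog among them. All 7 were above 0 in each library, with a summed level of 939 to 1105 RPKM in Tet2 KO and 827 to 1153 RPKM in wild type. One of them, Zfp42, was lower in Tet2 KO (log2 difference -1.95, limma adjusted p = 0.0434). That call ended without either 3 h or either 6 h library, where no locus was called. A near-identical copy, Zfp42-ps1, has its own locus and may share the reads of Zfp42. Of 16 fibroblast markers, 12 were in the table, all above 0, with a summed level of 435 to 576 RPKM in Tet2 KO and 478 to 684 RPKM in wild type. RNA of fibroblast markers was thus present in both genotypes, its part in the results below was not tested, and a level per cell cannot be told apart from the number of cells. Tet2 itself had 23.0, 11.2 and 10.1 RPKM in the Tet2 KO libraries at 0, 3 and 6 h, against 23.7, 17.9 and 12.5 RPKM in wild type (log2 difference -0.32, SE 0.20, limma adjusted p = 0.593). The RNA level of the targeted gene thus did not separate the genotypes past the threshold, and every direction rests on the labels. Nothing in the labels says that libraries came from separate cultures, so p-values measure only the spread between these libraries, which may be technical. With 1 library per genotype and time, the times stood in for replicates. The spread behind the genotype p-values is how the difference changed over 0, 3 and 6 h. That behind the slope p-values includes departure from a straight line.

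Dnmt3a, the de novo methyltransferase, had more RNA in the Tet2 KO than in the wild type libraries, before and during the block of transcription. Its fold, fitted over the 3 times together, was 2.00, but the difference did not pass over all loci. Its level was 56.2, 70.2 and 67.1 RPKM in Tet2 KO at 0, 3 and 6 h, against 30.5, 34.7 and 29.6 RPKM in wild type. The 3 Tet2 KO libraries all lay above the 3 wild type libraries, and the lowest of them exceeded the highest of wild type by more than the range within either genotype. The mean was 64.5 ± 7.35 RPKM in Tet2 KO and 31.6 ± 2.72 RPKM in wild type (SD over 3 times each). The ratio of Tet2 KO to wild type was 1.84 at 0 h, 2.02 at 3 h and 2.26 at 6 h, while the median ratio over all tested loci was 1.01, 0.981 and 1.13. The fit that blocked on time put it at 1.00 in log2(RPKM + 1) (SE 0.16, 95% interval 0.61 to 1.40), above that of 98.8% of tested loci. The limma adjusted p was 0.162 and the unadjusted p 0.000764. Few loci did: 9 of 11855 (0.0759%) were called, 1 of them higher (0.00844%), and 0 of the 3 genes. The 3 Tet2 KO libraries lay above the 3 wild type libraries at 6.05% of loci and below them at 4.67%, and the Tet2 KO level was at least 1.5 times that of wild type at every time at 1.88% of loci. Leaving out any 1 library kept the Dnmt3a difference between 0.93 and 1.07, with adjusted p between 0.206 and 0.544.

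Dnmt1, the maintenance methyltransferase, had overlapping levels in the genotypes. It had 37.7, 39.6 and 37.4 RPKM in Tet2 KO at 0, 3 and 6 h, against 39.3, 44.1 and 31.6 RPKM in wild type. The 3 Tet2 KO values fell inside the wild type range. The log2 difference was 0.0089 (SE 0.17, 95% interval -0.40 to 0.42, limma adjusted p = 0.988), an interval that leaves room for a change in either direction.

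Uhrf1, which recognises half-methylated CpG and recruits Dnmt1, was the most abundant of the 3 per length of RNA. It had 63.7, 71.4 and 67.8 RPKM in Tet2 KO, against 71.9, 77.0 and 59.0 RPKM in wild type. Here too the Tet2 KO values lay within the wild type range. The log2 difference was -0.028 (SE 0.16, 95% interval -0.43 to 0.37, limma adjusted p = 0.964). The sign of the Dnmt1 difference turned negative with quantile normalization or scaling of the libraries to the same median, and neither gene has a settled direction between the genotypes.

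**Figure D1:**
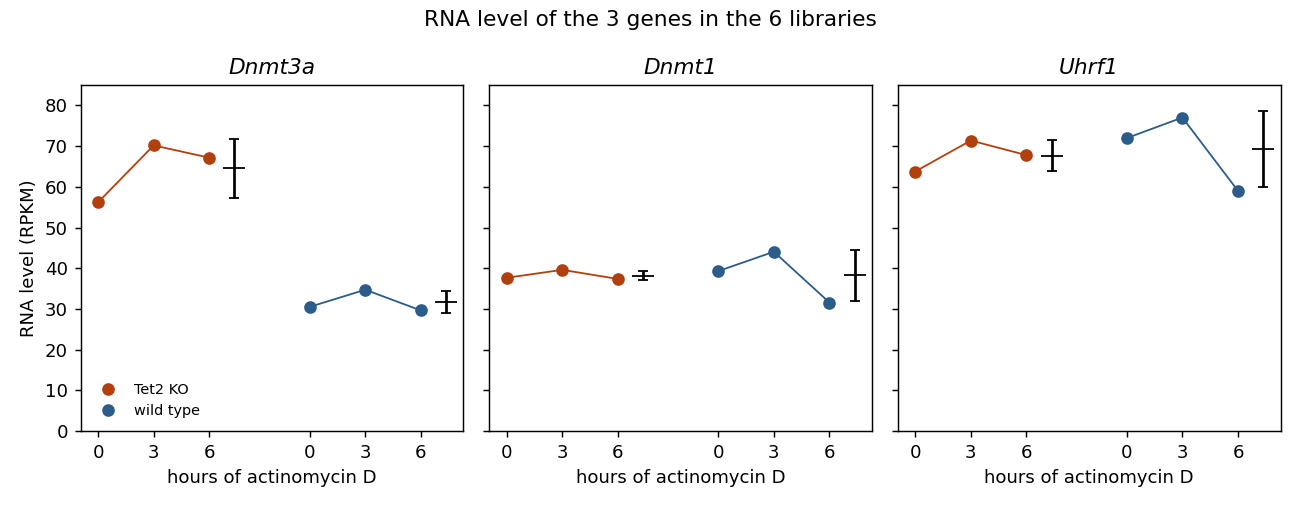
RNA level in RPKM (vertical axis) of Dnmt3a, Dnmt1 and Uhrf1 by hours of actinomycin D (horizontal axis), 1 point per library, with Tet2 KO left of wild type in each panel. Bars give the mean and SD over the 3 times; the Dnmt3a points lie between 56.2 and 70.2 RPKM in Tet2 KO and between 29.6 and 34.7 RPKM in wild type, while the groups overlap for Dnmt1 and Uhrf1.

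The order of the 3 genes by RPKM differed between the genotypes in the place of Dnmt3a. In Tet2 KO the order was Uhrf1, Dnmt3a and Dnmt1 at each time, and Uhrf1 and Dnmt3a were within 2% of each other at 3 and 6 h. In wild type it was Uhrf1, Dnmt1 and Dnmt3a at each time, and the ranges of Dnmt1 and Dnmt3a over the times overlapped. The ratio of Dnmt3a to Dnmt1 within a library was 1.49, 1.77 and 1.796 in Tet2 KO at 0, 3 and 6 h, against 0.777, 0.788 and 0.939 in wild type, a 2.02-fold difference between the geometric means. A ratio within a library does not depend on a single factor by which the whole library was scaled. It can change under quantile normalization, which is not such a factor. Swapping the genotypes within each time gave an exact permutation p of 0.25 (two-sided, n = 3 pairs of libraries), the smallest that 3 pairs can give. The ratio of Uhrf1 to Dnmt1 stayed between 1.69 and 1.81 in Tet2 KO and between 1.75 and 1.87 in wild type (exact permutation p = 0.75, two-sided, n = 3 pairs).

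None of the 3 RNAs fell past the threshold once transcription was blocked. RPKM divide by the total of the library, so a level after the drug is relative to the other RNAs and is no absolute loss. Dnmt3a at 3 h and 6 h was 1.25 and 1.19 times its 0 h RPKM in Tet2 KO, against 1.14 and 0.971 times in wild type. The median locus was at 0.967 and 0.824 times its 0 h level in Tet2 KO, against 0.974 and 0.750 times in wild type. Dnmt3a thus ranked above 72.2% and 79.4% of loci in Tet2 KO, against 66.6% and 73.1% in wild type. Uhrf1 was at 1.12 and 1.06 times its 0 h level in Tet2 KO, against 1.07 and 0.820 times in wild type. Dnmt1 was at 1.05 and 0.993 times its 0 h level in Tet2 KO, against 1.12 and 0.804 times in wild type. All 3 genes were above the median locus at both times in both genotypes.

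In a fit of the slope per hour shared by the genotypes, Dnmt3a had 0.018 log2 units (SE 0.040, limma adjusted p = 0.853), Uhrf1 had -0.016 (SE 0.040, adjusted p = 0.869) and Dnmt1 had -0.026 (SE 0.041, adjusted p = 0.771). The median slope of all loci was -0.048. In that fit 952 of 11855 loci (8.03%) were called, 938 of them falling (7.91%), and 0 of the 3 genes, while 23.8% had an unadjusted p under 0.05. The slopes of Dnmt1 and Uhrf1 were positive under quantile normalization and under scaling to the same median. That of Dnmt3a was 0.054 and 0.107 under these scalings (adjusted p = 0.258 and 0.0877), where the median of all loci was 0.016 and 0.027. The slope in Tet2 KO exceeded that in wild type by 0.049 for Dnmt3a, 0.062 for Uhrf1 and 0.049 for Dnmt1 (SE 0.094, 0.094 and 0.096), against a median of 0.024 over all loci. For none of them did the slopes differ past the threshold (limma adjusted p = 1.00 each, 95% interval for Dnmt3a -0.16 to 0.26). No locus of the 11855 passed in that fit (0%), while 488 (4.12%) had an unadjusted p under 0.05.

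The partners of these enzymes were read from lists of the DNA methylation pathway. These lists were chosen with earlier results of these data known, so a share or median set against all loci is a description only. Among 8 tested partners of maintenance methylation, 2 fell during actinomycin D, as did 7.91% of all loci. Uhrf2, the paralogue of Uhrf1, fell by 0.22 log2 units per h (SE 0.046, limma adjusted p = 0.0258), and its level was 10.4, 6.79 and 4.69 RPKM in Tet2 KO and 13.7, 7.44 and 3.55 RPKM in wild type at 0, 3 and 6 h. Cdca7, which recruits the chromatin remodeller Hells, fell by 0.22 per h (adjusted p = 0.0204), with 45.6, 27.4 and 21.0 RPKM in Tet2 KO and 37.0, 23.3 and 12.1 RPKM in wild type. Both calls ended with quantile normalization (adjusted p = 0.135 for Uhrf2 and 0.0706 for Cdca7), and with libraries scaled to the same median (0.0930 and 0.0826), where the slopes were -0.15 and -0.13. They also ended from 0 and 3 h alone, from 0 and 6 h alone and without wild type 0 h, 3 h or 6 h or Tet2 KO 0 h (adjusted p between 0.0524 and 0.388). Uhrf1 and Uhrf2 thus had slopes of -0.016 and -0.22 in the same libraries, a difference that was not itself tested. Between the genotypes none of the 8 was called. The estimate was above 0 for 7 of them and for 54.7% of all loci, with a list median of 0.35 against 0.037 over all loci. The smallest p-values were those of Hdac1, a histone deacetylase, at 0.45 and Cdca7l at 0.60 (adjusted p = 0.394 and 0.399).

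Among 10 tested factors that guide or oppose methylation, 1 fell, a share near the 7.91% of all loci that fell. It was Nsd1, the histone H3 lysine 36 methyltransferase whose mark Dnmt3a binds, which fell by 0.16 per h (SE 0.040, limma adjusted p = 0.0488). The other 9 were not called; Prdm14, a repressor of the Dnmt3 genes in stem cells, had a slope of -0.15 and Zfp57, which protects methylation at imprinted loci, one of -0.12 (adjusted p = 0.133 and 0.162). The Nsd1 call ended in 12 of 14 alternatives, among them the left-out libraries (adjusted p between 0.0535 and 0.258 without any 1 of the 6) and scaling to the same median (slope -0.070, adjusted p = 0.194). Between the genotypes none of the 10 was called. The estimate was above 0 for 9 of them, against 54.7% of all loci, with a list median of 0.24 against 0.037 over all loci. Kdm1a, a histone demethylase, was at 0.50 and Trim28, the corepressor of zinc finger proteins, at 0.45 (adjusted p = 0.404 and 0.444). Of 6 methyl-CpG readers none was called in either comparison; Mbd1 had the slope of smallest p, -0.16 per h (adjusted p = 0.192), and Mbd2 the genotype difference of smallest p, 0.30 (adjusted p = 0.644).

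On the side of removal and supply, Gadd45a, a stress-induced gene linked to demethylation, fell by 0.39 per h (SE 0.048, limma adjusted p = 0.00725) as the 1 of 5 tested genes called, where 7.91% of all loci fell. Tet2 itself had a slope of -0.17 (adjusted p = 0.0603), and Xrcc1, a scaffold of base excision repair, had a genotype difference of 0.60 (adjusted p = 0.414). Of 6 genes of methyl donor synthesis 1 fell, against 7.91% of all loci. It was Mat2b, the regulatory subunit of the methionine adenosyltransferase, which fell by 0.45 per h (SE 0.053, adjusted p = 0.00725). Its catalytic partner Mat2a had a slope of -0.11 (adjusted p = 0.128) and a genotype difference of 0.49 (adjusted p = 0.405), and Shmt2, of mitochondrial folate metabolism, had a genotype difference of -0.67 (adjusted p = 0.375). Trdmt1, the relative of these enzymes that methylates tRNA, had 3.29, 6.28 and 6.95 RPKM in Tet2 KO and 1.73, 4.78 and 4.03 RPKM in wild type, with a slope of 0.15 (adjusted p = 0.147). Dnmt1 and Uhrf1 are S-phase genes in cycling cells, and of 14 other S-phase genes 1 fell, the licensing factor Cdc6 by 0.34 per h (adjusted p = 0.0131), a share near the 7.91% of all loci that fell. The S-phase list had a median genotype difference of 0.12 and a median slope of -0.036, and its genes of smallest p between the genotypes were Mcm4 at 0.27 and Mcm2 at -0.29 (adjusted p = 0.580 and 0.606). The calls of Gadd45a and Cdc6 ended with quantile normalization (adjusted p = 0.0508 and 0.0859) and with libraries scaled to the same median (0.0522 and 0.0687). Those of Gadd45a, Mat2b and Cdc6 ended from 0 and 3 h alone (between 0.188 and 0.316) and without the wild type 6 h library (between 0.0948 and 0.119). That of Cdc6 also ended without wild type 0 h (0.0847) or 3 h (0.0517). The slopes of all 6 genes called as falling in these lists stayed negative in the 14 alternatives run.

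A list of germline genes whose promoters are methylated in somatic cells was read alongside. It too was chosen with earlier results known, and its shares are descriptions only. Of 14 listed genes 11 had a locus and 8 were tested. Between the genotypes none of these 8 was called. The estimate was above 0 for 7 of them, against 54.7% of all loci, with a list median of 0.46 against 0.037 over all loci. Tex19.1 had 15.6, 11.4 and 9.66 RPKM in Tet2 KO and 4.92, 4.87 and 2.80 RPKM in wild type (log2 difference 1.35, SE 0.21, limma adjusted p = 0.145). Ddx4, an RNA helicase of germ cells, had 10.98, 9.47 and 10.97 RPKM in Tet2 KO and 3.996, 6.23 and 3.78 RPKM in wild type (1.04, SE 0.24, adjusted p = 0.309). These and Taf7l were the 3 of 8 whose Tet2 KO libraries all lay above the wild type libraries, as they did at 6.05% of all loci. Taf7l was low, at 1.67 to 1.92 RPKM in Tet2 KO and 0.619 to 1.29 RPKM in wild type. The same order was seen for 4 of 8 maintenance partners and 4 of 10 factors that guide or oppose methylation. It was seen for 1 of 14 S-phase genes, 1 of 5 genes of demethylation, 0 of 6 readers and 0 of 6 genes of methyl donor synthesis. In the methyl donor list 1 of 6 genes, Shmt2, had all its Tet2 KO libraries below wild type. The other lists named here had no such gene. None of the 8 germline genes was called over time, where Tex19.1 had a slope of -0.11, Dazl -0.10 and Stk31 0.067 (limma adjusted p = 0.188, 0.394 and 0.517).

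**Figure D2:**
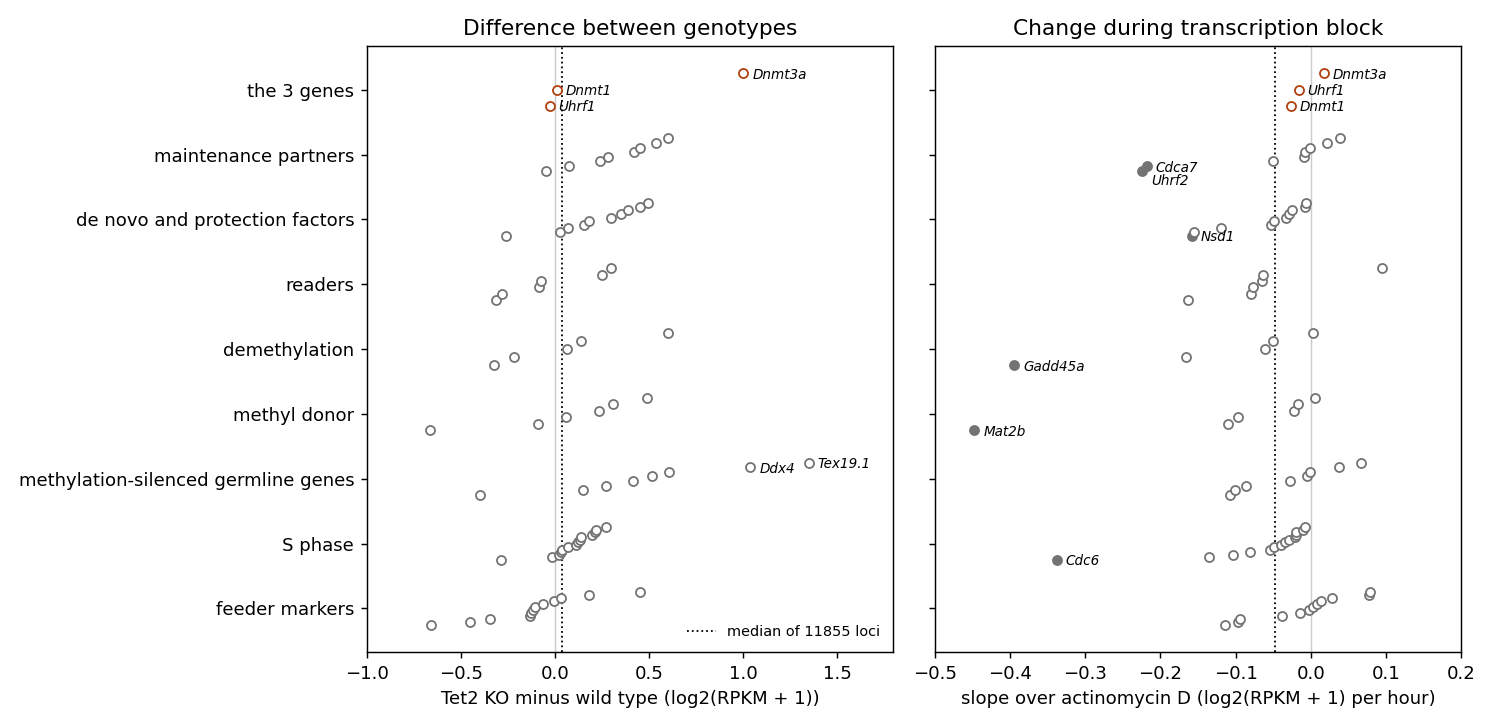
Genotype difference (left, log2(RPKM + 1), Tet2 KO minus wild type) and slope over actinomycin D (right, log2(RPKM + 1) per hour) of Dnmt3a, Dnmt1 and Uhrf1 and of each tested gene in the lists named on the vertical axis. Filled points passed over all loci and the dotted line is the median of all 11855. No point is filled on the left, and on the right Uhrf2, Cdca7, Nsd1, Gadd45a, Mat2b and Cdc6 are, all below 0. The stem cell markers are not drawn. Among them Zfp42 passed in the genotype difference (-1.95), and Zfp42 and Klf4 passed in the slope (-0.35 and -0.40 per hour).

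The profile of Dnmt1 over the 6 libraries was closest to that of Uhrf1 among the 3 genes. After each profile was centred on its own mean, Dnmt1 and Uhrf1 were 0.045 apart (root mean square, log2 units), while Dnmt1 and Dnmt3a were 0.51 apart and the median distance of Dnmt1 to all loci was 0.33. Among all named loci the closest to Dnmt1 were Hectd4, Bex4 and Trrap (0.030, 0.035 and 0.042), and the closest to Uhrf1 were Hectd4, Eef1g and Bex4 (0.042, 0.043 and 0.043). The closest to Dnmt3a were Idi1, an enzyme of isoprenoid synthesis, Ccdc7b and Glipr2 (0.097, 0.109 and 0.113). Idi1 had 23.0, 29.7 and 29.7 RPKM in Tet2 KO, against 13.3, 16.6 and 14.5 RPKM in wild type. With 6 libraries these distances are descriptions only.

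The bisulfite tables listed m5C in the RNA of 4 of the 5 genes. Dnmt3b held 5 positions, Dnmt3a, Dnmt3l and Uhrf1 held 2 each, and Dnmt1 held none. In wild type Dnmt3a had none listed either, and its RPKM there were below those of Dnmt1 at each time. In Tet2 KO, where both Dnmt3a positions were listed, its RPKM were above those of Dnmt1 at each time. Uhrf1, with RPKM above those of both genes at each time in both genotypes, had 1 position listed per genotype. All 11 lay on the strand of their gene, as did 97.0% of the 6287 sites in protein-coding genes. No listed level was below 0.1 in either replicate, and no coverage is given, so an unlisted position is not a measured 0, and the precision of each level is unknown. A listing of 0 sites is common at such RNA levels: of 1144 protein-coding genes with a mean of 25 to 100 RPKM, 49.6% held at least 1 site. Across the 5 genes 8 sites were listed in Tet2 KO and 7 in wild type, with 4 in both, 4 in Tet2 KO alone and 3 in wild type alone. Shared sites were 36.4% of these 11 (95% exact interval 10.9% to 69.2%) and 13.2% of all 7870 sites. The RefSeq table gives gene bounds only, so whether a site is exonic, intronic or in a UTR was not analysed here.

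Dnmt3l carried the highest levels of the 11. Its 2 sites are 6 bases apart on chromosome 10, at positions 78056186 and 78056192 of the plus strand, 65.1% and 65.2% of the way along the gene (chr10:78042287-78063622). At 78056192 the level was 0.4 and 0.455 in the Tet2 KO replicates, against 0.286 and 0.227 in wild type. The replicates of the genotypes did not overlap, and the mean of 0.428 ± 0.039 in Tet2 KO and 0.257 ± 0.042 in wild type (SD, n = 2 each) differed by 0.171. At 78056186 the level was 0.5 and 0.4 in Tet2 KO, and the site was not listed in wild type. These means rank 182nd and 152nd from the top of the 4781 sites of Tet2 KO, of which 4.50% had a mean of at least 0.4.

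Dnmt3b, the other de novo enzyme, held 4 of its 5 sites within the last 1000 bases of the gene (chr2:153649411-153687730, plus strand), where 18.5% of sites in protein-coding genes lie. At position 153687228, 502 bases before the gene end, the level was 0.330 and 0.252 in Tet2 KO, against 0.140 and 0.190 in wild type. These replicates did not overlap either, with means of 0.291 ± 0.055 in Tet2 KO and 0.165 ± 0.035 in wild type (SD, n = 2 each). At 153686908, 822 bases before the end, the level was 0.235 and 0.105 in Tet2 KO, against 0.25 and 0.188 in wild type, and the replicates of the genotypes overlapped. Between and beyond these, 153687003 had 0.108 and 0.111, and 153687422 had 0.1 and 0.118, in wild type only, close to the lowest level that was listed. The fifth site, 153672235, 59.6% of the way along the gene, had 0.143 and 0.167 in Tet2 KO, against 0.158 and 0.148 in wild type. Of the 3 Dnmt3b sites listed in both genotypes, 1 thus had replicates that did not overlap, where 19.4% of all shared sites had both Tet2 KO replicates above and 15.5% below wild type. Only 139 of the 4661 protein-coding genes with a site held 5 or more.

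In the fit over the 1039 sites shared by the genotypes, made on the arcsine square root of the level, the Dnmt3l site 78056192 differed by 0.182 (SE 0.050, limma adjusted p = 0.473, unadjusted p = 0.0164). The Dnmt3b site 153687228 differed by 0.152 (SE 0.054, limma adjusted p = 0.619, unadjusted p = 0.0409). The sites 153686908 and 153672235 differed by -0.068 and 0.0026 (adjusted p = 0.876 and 0.993). No shared site passed over all 1039 (0%), and 79 (7.6%) had an unadjusted p under 0.05. Both Tet2 KO replicates lay above both wild type replicates at 19.4% of shared sites, and at 2 of the 4 in these genes. In plain levels the differences of 0.171 and 0.126 ranked 27th and 54th of 1039, where the median difference was 0.002.

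Dnmt3a, whose RNA was higher in the Tet2 KO libraries, had its 2 m5C sites listed in Tet2 KO only, as were 47.5% of all 7870 sites. Position 3895995 on chromosome 12 had levels of 0.136 and 0.156, and position 3911594 had 0.1 and 0.154. Both lie in the gene (chr12:3801559-3914443, plus strand) 4251 and 19850 bases after the last start of the promoter table, whose upstream sequence is shown above, so the 3 starts of that table lie before them. For this 1 gene the listing and the higher RNA level fell in the same genotype. The part of RNA level in the listing was not tested. Uhrf1 (chr17:56303337-56323486, plus strand) had 1 site per genotype at different positions. Position 56312288 had 0.1 and 0.111 in Tet2 KO, and 56318373 had 0.231 and 0.120 in wild type. Dnmt1 (chr9:20907206-20959888, minus strand) had no site in either table.

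**Figure D3:**
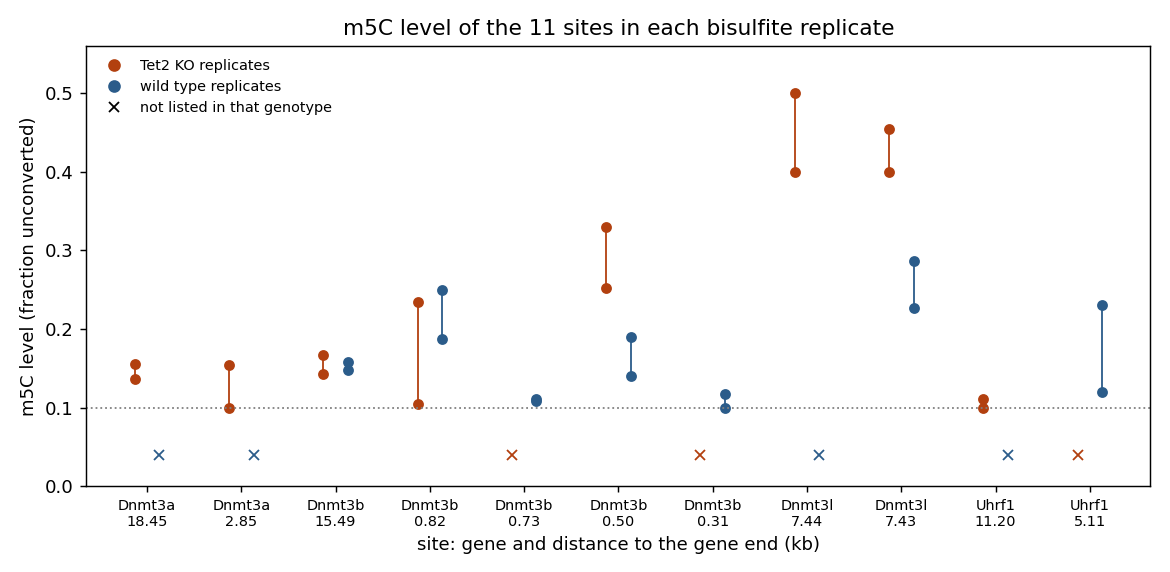
m5C level (vertical axis, fraction of unconverted reads) of the 11 sites in each bisulfite replicate, Tet2 KO left of wild type at each site, with the distance to the gene end in kb under the gene name. The dotted line is the lowest listed level, 0.1, and crosses mark sites not listed in that genotype (their height carries no value); the 2 Dnmt3l sites and the Dnmt3b site 0.50 kb from the end have the highest Tet2 KO levels.

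**Figure D4:**
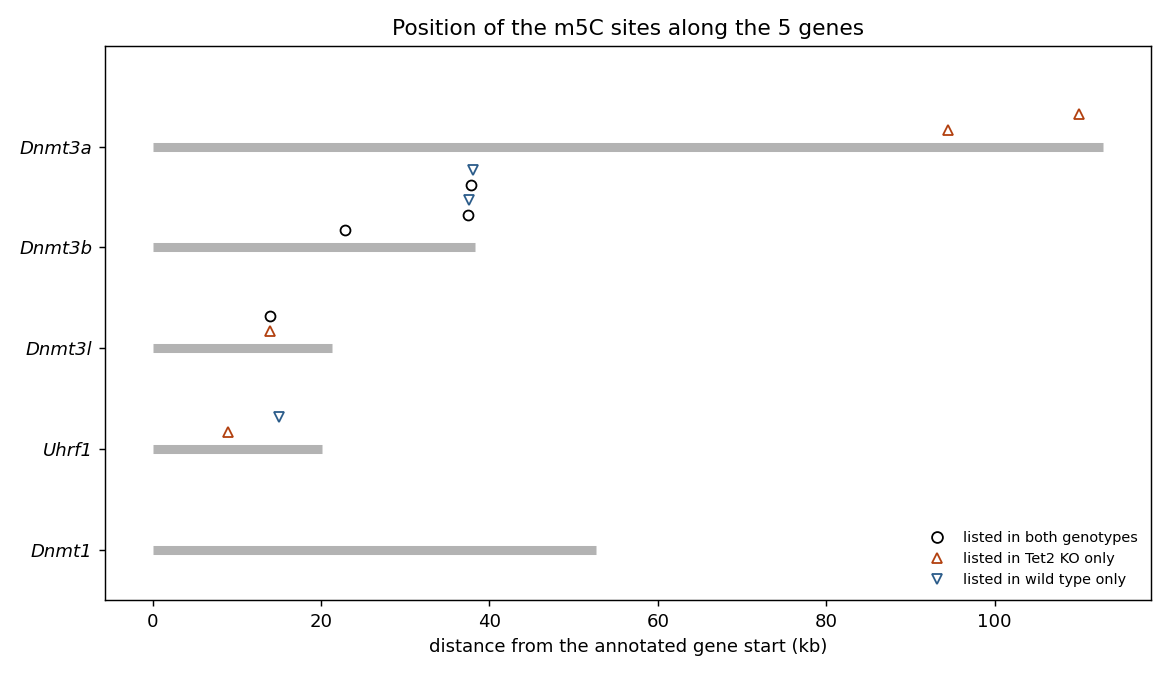
Position of the 11 sites as distance in kb from the annotated gene start (horizontal axis) along each of the 5 genes, drawn to scale as grey bars, with the symbol giving the genotype in which the site was listed. Symbols are stacked to keep them apart and their height carries no value; Dnmt3b sites gather at the gene end, and Dnmt1 has none.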

How the data were processed

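The members and lists were chosen with earlier results of these data known. Values came from 10 of 18 samples; the 8 immunoprecipitation and input samples were not used. Per the file headers, the RNA table that was deposited gives each locus in RPKM (1 header lacks the first letter of the unit and was read alike). The site tables hold the deposited m5C level per site and replicate as a fraction, without coverage, per the file headers. Per the submitters' processing notes, Bowtie2, Cufflinks, MACS2, DESeq2 and Trimmomatic were used, with builds mm10 and GRCm38; the sources used here give neither their roles nor how strand, multiply mapped reads and the listing of a site were handled, and each could change a value. RNA that resists conversion would be read as m5C.

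RPKM were tested with limma 3.58.1 (R 4.3.3) on log2(RPKM + 1), which understates changes of low loci, with a mean trend, at a mean RPKM of at least 1, Benjamini-Hochberg over all loci at 0.05, two-sided. Time was blocked in the genotype contrast (residual degrees of freedom 2), genotype was a term of the slope fit (3), and slope differences came from the interaction term (2). Shared sites were matched by chromosome, position and strand and tested with limma on the arcsine square root of the level. The site tables name no gene, so sites were placed in genes by RefSeq bounds (GRCm38.p6). Ratios between genes were tested by swapping genotypes within times, a test chosen after seeing the data. Scripts were tested on simulated data. Named were the 5 genes, Tet2, list members that passed, otherwise up to 3 per list by p for the slope and 2 for the genotype, and the 3 nearest profiles; not every such gene is printed. Listed genes were matched by symbol, and loci with several symbols stayed out of lists. Same-numbered bisulfite replicates did not deviate together (correlation -0.0034 over 1039 sites) and were not paired.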

Additional observations from a re-analysis of the deposited data

How the results depend on the processing

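Dnmt3a kept its direction between the genotypes in all 13 alternatives, with differences of 0.93 to 1.07 and adjusted p of 0.117 to 0.544, and none of Dnmt1, Dnmt3a and Uhrf1 was called in any comparison under any alternative. The count of loci called between the genotypes was 9, and 4 without a filter, 15 at a mean RPKM of at least 5, 3 with quantile normalization, 5 without the trend and 0 to 12 with a library left out, 0 without either 3 h or either 6 h library. The count of slopes called was 952, and 114 with quantile normalization, 83 with libraries scaled to the same median, 9 from 0 and 3 h alone, 580 from 0 and 6 h alone and 0 to 1476 with a library left out, 0 without wild type 6 h. Slope differences went from 0 to between 0 and 293 calls with a library left out. Scaling moved the median slope of all loci to 0.016 (quantile) and 0.027 (same median). The cause was not tested. Dnmt1 reversed between the genotypes with quantile normalization (-0.074) and the same median (-0.027), and its slope was 0.013, 0.063 and, from 0 and 3 h alone, 0.039; that of Uhrf1 was 0.018, 0.074 and 0.043 in these settings, and that of Dnmt3a 0.054, 0.107 (adjusted p = 0.0877) and 0.083, against 0.018. With a library left out, genotype differences ranged from -0.10 to 0.088 for Dnmt1 and -0.14 to 0.044 for Uhrf1, slopes from -0.046 to 0.0093 for Dnmt1, -0.042 to 0.018 for Uhrf1 and -0.0096 to 0.046 for Dnmt3a, and slope differences from -0.056 to 0.15, -0.018 to 0.14 and -0.018 to 0.12. Since time is blocked, leaving out either library of a time gives the same genotype difference.

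No site was called under any alternative: 0 of 1039 with the replicate block (87 at an unadjusted p under 0.05), where the Dnmt3l site 78056192 had adjusted p = 0.542 and the Dnmt3b site 153687228 had 0.626. With 1 replicate left out, the lone sample being assumed to vary like the others, these 2 sites kept their direction, 153672235 ranged from -0.014 to 0.019 and 153686908 from -0.16 to 0.020. Placing sites by a named gene was not run, since the tables name none. Without coverage, the depth behind a level is unknown.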
